A study of Homo sapiens with 9 samples.

Results

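The Hippo pathway genes described here are 10 transcripts that code for the effectors of the pathway, their partners and their best known targets: YAP1, WWTR1, TEAD1, LATS2, AMOTL1, AMOTL2, AJUBA, CYR61, CTGF and ANKRD1. They were chosen by symbol, as the rows that carry one of these names in every library, and make up 10 of 60420 gene IDs listed. Each of the 10 was measured above 0 in all 9 libraries and was tested. The libraries come from A375, a human melanoma cell line, with RNA taken on day 7 of a knockdown of the SPANX genes, cancer-testis antigens that healthy tissue makes in the male germ line. The groups are SPANX KD 86 and SPANX KD 87, which differ in the knockdown construct, and EV, the control, with 3 libraries in each. The labels name no sequence for either construct and do not say whether the libraries of a group came from separate cultures, and every p-value therefore rests on library-to-library spread that can be technical. Reads came from the 3' end of each transcript (QuantSeq), and levels are normalised reads on a scale common to the 9 libraries. Levels were not divided by length and are compared only within a gene.

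In the Hippo pathway the MST kinases, held by the scaffold SAV1, activate the LATS kinases, which phosphorylate YAP (from YAP1) and TAZ (from WWTR1) and keep them out of the nucleus. When this restraint is low, YAP and TAZ enter the nucleus, bind the TEAD transcription factors and turn on genes such as CYR61, CTGF and ANKRD1. LATS2 and AMOTL2 are themselves among these targets and restrain YAP in return. In melanoma cells YAP and TAZ are known for their part in invasive growth. RNA levels do not show where these proteins are in the cell or whether they are phosphorylated.

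TEAD factors bind DNA at a core that reads GGAATG, or CATTCC on the other strand. RefSeq windows on GRCh38.p14, from 250 bases before to 50 bases after each annotated start, were found for 8 of the 10 genes, with 11 windows in all, and no entry was held for CYR61 and TEAD1. GGAATG, read on both strands, was present in 6 of the 11 windows. Of all 35116 promoter windows of that length, 14% held it at least once, 1.37% at least 2 times and 0.128% at least 3 times. CTGF (RefSeq symbol CCN2) held it 3 times, with the first base at -169, -104 and -95 from the start, and ANKRD1 held it 2 times, at -220 and -128. Single matches lay at -162 in YAP1, at -69 in 1 of the AMOTL2 windows, at -59 in 1 of the AJUBA windows and at 10 bases past the start in LATS2. The AP-1 motif TGANTCA, which does not share letters with these matches, was found in 1 of the windows, that of ANKRD1 at -195, against 7.71% of all windows. A match describes the letters and does not show binding. The 250 bases before the start are shown for the targets with the most matches and for AMOTL2, which carries the core on the other strand. They cover chr6:131951373-131951622 for CTGF, chr10:90921088-90921337 for ANKRD1 and chr3:134374448-134374697 for AMOTL2, all on the minus strand and written 5′ to 3′ on that strand. Capitals mark the TEAD core.
CTGF: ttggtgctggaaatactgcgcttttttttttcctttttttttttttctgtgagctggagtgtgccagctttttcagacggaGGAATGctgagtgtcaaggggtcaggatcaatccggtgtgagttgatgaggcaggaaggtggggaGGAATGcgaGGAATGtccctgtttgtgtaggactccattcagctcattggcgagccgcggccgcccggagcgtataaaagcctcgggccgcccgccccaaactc
ANKRD1: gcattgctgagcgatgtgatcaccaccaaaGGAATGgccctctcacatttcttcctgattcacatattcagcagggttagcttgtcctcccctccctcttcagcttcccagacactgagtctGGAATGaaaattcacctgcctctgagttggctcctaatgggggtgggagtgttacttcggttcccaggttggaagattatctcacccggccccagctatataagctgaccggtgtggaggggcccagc
AMOTL2: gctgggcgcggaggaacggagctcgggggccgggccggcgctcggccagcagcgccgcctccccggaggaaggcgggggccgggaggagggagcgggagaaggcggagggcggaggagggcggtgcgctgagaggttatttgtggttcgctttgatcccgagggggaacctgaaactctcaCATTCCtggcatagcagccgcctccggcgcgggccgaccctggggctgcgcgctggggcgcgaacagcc

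SPANXC, the check of the knockdown, was lower in both knockdown groups. It stood at 102, 35.1 and 42.2 normalised reads in SPANX KD 86, at 25.2, 18.0 and 33.6 in SPANX KD 87, and at 400.2, 149.9 and 511 in EV. By limma with Benjamini-Hochberg adjustment it fell 5.78-fold with construct 86 (adjusted p = 0.00371) and 12.2-fold with construct 87 (adjusted p = 0.00335). SPANXD averaged 0.615, 6.12 and 75.6 normalised reads in SPANX KD 86, SPANX KD 87 and EV. SPANX genes are near-identical copies, so how reads were divided between them is uncertain. Between 11310792 and 15563765 reads were recovered per library. EV replicate 2 stood apart from the other EV libraries in how levels went with transcript length: log2 level relative to the mean of all libraries changed by 0.14 per doubling of length there, against -0.26 in EV replicate 1 and -0.29 in EV replicate 3. The same slope lay between 0.06 and 0.26 in SPANX KD 86 and between -0.16 and 0.10 in SPANX KD 87. Replicate 2 had the highest slope in each group, with 0.26 in SPANX KD 86 and 0.10 in SPANX KD 87. The part of this slope in the results was not tested as a cause. Values with the length trend removed, or without EV replicate 2, are given where they change a call. Leaving out EV replicate 2 alone kept replicate 2 of both knockdown groups, so those fits were not balanced in this slope.

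Of the melanocyte and melanoma markers 5 of 10 were above 0, and their summed level was 15541 to 21756 normalised reads in SPANX KD 86, 8822 to 12963 in SPANX KD 87 and 3272 to 6717 in EV. The pigment cell genes MLANA, TYR, DCT and TYRP1, as well as GPM6B, stood at 0. SOX10, the lineage factor of melanocytes, averaged 15713 normalised reads in SPANX KD 86, 9667 in SPANX KD 87 and 3595 in EV. It made up most of the summed level of these markers in each group. In the same order of groups MITF averaged 565.9, 730.1 and 586.7, and PMEL 10.4, 24.1 and 15.6. S100B averaged 248.1, 405.7 and 153.1, and S100A1 1508.9, 700.1 and 181.4. The 6 fibroblast markers above 0, of 7, summed to 887 to 1030.2 in SPANX KD 86, 765 to 1014 in SPANX KD 87 and 332 to 399 in EV, with THY1 at 0. Among them COL3A1 was above 0 in SPANX KD 87 alone, with a mean of 24.4, so the sums do not cover the same genes in every group. Keratinocyte markers were above 0 for 2 of 5 and summed to 693 to 1171 in SPANX KD 86, 1349 to 1799 in SPANX KD 87 and 1033 to 2191 in EV, with KRT5, KRT1 and CDH1 at 0. All 3 endothelial and all 4 leukocyte markers stood at 0. A 0 throughout a group stands for a filtered gene and does not show that the gene is unexpressed. These sums differ between the groups in which the Hippo genes were compared, and their part in the results was not tested. In bulk RNA, fewer cells of a type and less RNA per cell cannot be told apart.

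With construct 86, YAP1, WWTR1, TEAD1 and LATS2 rose relative to EV, and CYR61, ANKRD1 and AJUBA fell. With construct 87, LATS2 rose, and the other 9 genes did not pass the test in this fit, which ignores replicate number. When replicate number was added as a block, 6 of the 10 passed with construct 87, where 31% of all genes did. Called means an adjusted p under 0.05 in limma, adjusted over all 13825 genes tested. Of the 10 genes, 7 were called with construct 86, where 35.6% of all genes tested were called (18% higher and 17.6% lower), and 1 of 10 was called with construct 87, where 10.3% were called (5.87% higher and 4.43% lower). Between the constructs 5 of 10 were called, where 25.6% of all genes were called (12.8% higher and 12.7% lower). The 3 SPANX KD 86 libraries lay wholly above the EV libraries for 4 of the genes and wholly below for 3, against 22.5% and 22.9% of all genes. The SPANX KD 87 libraries lay wholly above the EV libraries for 5 genes and wholly below for 0, against 15.2% and 14% of all genes. The median log2 fold change of the 10 genes was 0.54 with construct 86, where that of all genes was -0.04, and 0.60 with construct 87, where that of all genes was 0.00. Both knockdown groups were set against the same 3 EV libraries, so the comparisons with EV are not independent. The 10 genes were chosen with earlier results of these data known, so the shares of all genes are context and not a test.

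Libraries that carry the same replicate number deviated together, and the fit was repeated with that number as a block. With construct 86 the block called 9 of the 10 genes, all but CTGF, 5 higher and 4 lower. It called 55.4% of all genes in that comparison (27% higher and 28.4% lower). With construct 87 it called 6, all higher, where it called 31% of all genes (16.1% higher and 14.9% lower). Between the constructs it called 7, 3 higher and 4 lower with construct 86, where it called 44.1% of all genes (21.9% higher and 22.3% lower). With the length trend removed, 8 of the 10 were called with construct 86, 3 with construct 87 and 6 between the constructs, where 38.5%, 15.1% and 30.4% of all genes were called. With block and length correction together the counts were 8, 6 and 8, where 55.2%, 34.8% and 47.8% of all genes were called. The fits that left out 1 library had no replicate block, and each left 1 replicate number incomplete. The count with construct 86 was 3 without EV replicate 1, 4 without EV replicate 3 and 4 without SPANX KD 86 replicate 2, where 3442, 3993 and 3056 of all genes were called, against 4928 with every library. The count with construct 87 was 0 without EV replicate 1, EV replicate 3, SPANX KD 87 replicate 1 or SPANX KD 87 replicate 2, where 521, 1060, 368 and 607 of all genes were called, against 1425 with every library. It was 2 without SPANX KD 86 replicate 1 or replicate 3 (1373 and 1170 of all genes) and 3 without EV replicate 2 (2549 of all genes). Without EV replicate 2, 8 of the 10 were called with construct 86 (6019 of all genes).

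**Figure D1:**
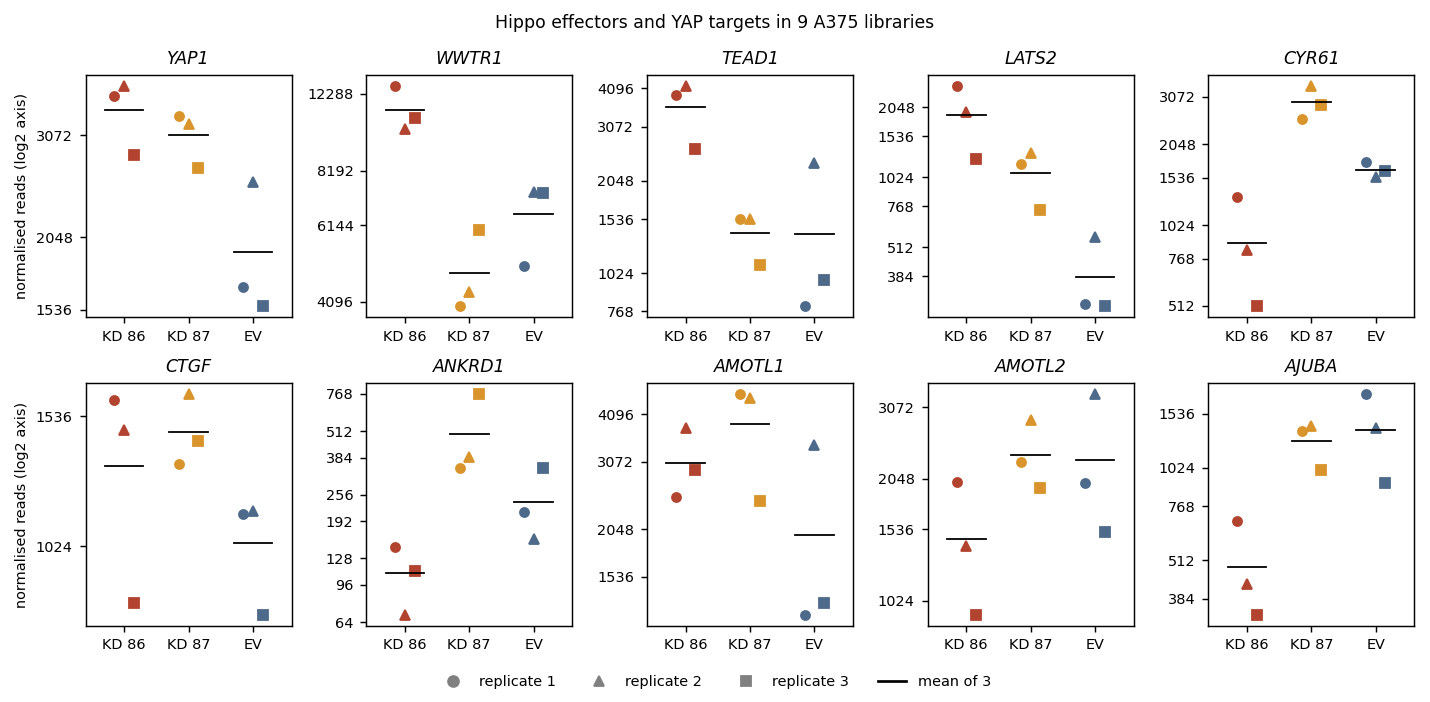
Normalised reads of each of the 10 genes in every library, on a log axis, with SPANX KD 86, SPANX KD 87 and EV from left to right; points are libraries and bars are group means. LATS2 lies above EV in both knockdown groups, while CYR61 lies below EV in SPANX KD 86 and above it in SPANX KD 87.

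YAP1 and WWTR1 code for the co-activators YAP and TAZ, which carry the signal of the pathway into the nucleus. YAP1 stood at 3595, 3742 and 2837 normalised reads in SPANX KD 86, at 3316, 3216 and 2694 in SPANX KD 87, and at 1681, 2555 and 1559 in EV. Every knockdown library was above every EV library, and EV replicate 2 was the highest of the controls. YAP1 averaged 3392 ± 486 normalised reads in SPANX KD 86, 3075 ± 334 in SPANX KD 87 and 1932 ± 543 in EV (SD, n = 3 each). With construct 86 it rose 1.79-fold (log2 fold change 0.84, SE 0.22, limma adjusted p = 0.0152). That call was lost without EV replicate 1 (0.0565), EV replicate 3 (0.0516) or SPANX KD 86 replicate 2 (0.0642). With construct 87 the log2 fold change was 0.70 (SE 0.22, limma adjusted p = 0.0721), and it passed with the replicate block (0.00716), with the length trend removed (0.0451, log2 fold change 0.59) and without EV replicate 2 (0.0128).

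WWTR1 stood at 12842, 10207 and 10821 normalised reads in SPANX KD 86, at 4012, 4319.8 and 5979 in SPANX KD 87, and at 4959, 7319 and 7295 in EV. The SPANX KD 86 libraries were the highest, with no overlap with either other group, and those of SPANX KD 87 overlapped with EV. WWTR1 averaged 11290.0 ± 1379 normalised reads in SPANX KD 86, 4770.4 ± 1058 in SPANX KD 87 and 6524 ± 1355 in EV (SD, n = 3 each). With construct 86 it rose 1.75-fold (log2 fold change 0.81, SE 0.23, limma adjusted p = 0.0212), a call lost without EV replicate 1 (0.0782) or SPANX KD 86 replicate 1 (0.0705). Its log2 fold change with construct 87 was -0.45 (95% interval -0.97 to 0.06, limma adjusted p = 0.24). The antisense transcript WWTR1-AS1 stood at 16.8, 5.14 and 14.3 normalised reads in SPANX KD 87 and is listed at 0 in the other groups. LATS2-AS1 and WWTR1-IT1 are listed at 0 throughout.

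TEAD1 codes for a TEAD transcription factor, the DNA-binding partner of YAP and TAZ. It stood at 3884, 4184 and 2591 normalised reads in SPANX KD 86, at 1534, 1539 and 1087 in SPANX KD 87, and at 800.4, 2331 and 974 in EV. The SPANX KD 86 libraries were above all others, and EV replicate 2 was over 2 times as high as the other EV libraries. With construct 86 TEAD1 rose 2.85-fold (log2 fold change 1.51, SE 0.37, limma adjusted p = 0.00966), and the call held without any 1 library. Its log2 fold change with construct 87 was 0.17 (95% interval -0.64 to 0.97, limma adjusted p = 0.802), and it was -0.14 without EV replicate 1 and 0.63 without EV replicate 2.

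LATS2, the kinase that phosphorylates YAP and TAZ and is also one of their targets, was the only one of the 10 genes called with both constructs in the fit without the replicate block. With the block YAP1, AMOTL1, CYR61 and ANKRD1 were called with both constructs as well, CYR61 and ANKRD1 in opposite directions, and with the length trend removed YAP1 was. LATS2 stood at 2544, 1952 and 1225 normalised reads in SPANX KD 86, at 1169.6, 1303 and 740.2 in SPANX KD 87, and at 292, 564 and 286 in EV. All knockdown libraries were above all EV libraries, while the knockdown groups overlapped with each other. It averaged 1907 ± 661 normalised reads in SPANX KD 86, 1071 ± 294 in SPANX KD 87 and 381 ± 159 in EV (SD, n = 3 each). LATS2 rose 5.04-fold with construct 86 (log2 fold change 2.33, SE 0.35, limma adjusted p = 0.000835), which held without any 1 library. It rose 2.88-fold with construct 87 (log2 fold change 1.52, SE 0.35, limma adjusted p = 0.0213). The call with construct 87 was lost without EV replicate 1 (0.0917), EV replicate 3 (0.062), SPANX KD 87 replicate 1 (0.0999) or SPANX KD 87 replicate 2 (0.0821). With every library and the replicate block, the adjusted p with construct 87 was 0.000699.

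AMOTL1 and AMOTL2 code for angiomotin-like proteins, which bind YAP at cell junctions and hold it in the cytoplasm. AMOTL1 stood at 2486, 3767 and 2930.0 normalised reads in SPANX KD 86, at 4622, 4516 and 2420.0 in SPANX KD 87, and at 1222, 3408 and 1314 in EV. EV replicate 2 lay within the range of both knockdown groups, and the other EV libraries lay below all knockdown libraries. AMOTL1 did not pass with construct 86 (log2 fold change 0.77, SE 0.39, limma adjusted p = 0.146) or with construct 87 (1.07, SE 0.39, 0.108). With the replicate block the adjusted p was 0.0234 with construct 86 and 0.0103 with construct 87, and without EV replicate 2 it was 0.00623 (log2 fold change 1.25) and 0.00857 (1.54). With the length trend removed the log2 fold change was 0.30 with construct 86 (adjusted p = 0.334) and 0.80 with construct 87 (0.0373). AMOTL1 has the longest median transcript of the 10 genes, 8907 bases.

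AMOTL2 stood at 2009, 1397 and 947 normalised reads in SPANX KD 86, at 2247, 2858 and 1946 in SPANX KD 87, and at 1999, 3308 and 1517 in EV. The groups overlapped, and again EV replicate 2 was the highest control. With construct 86 the log2 fold change was -0.64 (SE 0.33, limma adjusted p = 0.155), which passed with the replicate block (0.0241) and with the length trend removed (-0.93, 0.0204). With construct 87 it was 0.11 (95% interval -0.62 to 0.84, limma adjusted p = 0.866), and -0.03 with the length trend removed, -0.15 without EV replicate 3 and -0.04 without SPANX KD 87 replicate 2.

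AJUBA codes for a LIM domain protein that binds LATS kinases and limits their activity. It stood at 688.5, 428 and 341 normalised reads in SPANX KD 86, at 1346, 1401 and 1006 in SPANX KD 87, and at 1775, 1379.9 and 915.5 in EV. The SPANX KD 86 libraries were below all others, and SPANX KD 87 lay within the range of EV. AJUBA fell 2.81-fold with construct 86 (log2 fold change -1.49, SE 0.31, limma adjusted p = 0.00412), and the call held without any 1 library. Its log2 fold change with construct 87 was -0.08 (95% interval -0.75 to 0.59, limma adjusted p = 0.892), with values of 0.14 without EV replicate 1 and 0.07 without SPANX KD 87 replicate 3.

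Of the target genes, CYR61 and CTGF code for secreted matricellular proteins of the CCN family, and ANKRD1 for an ankyrin repeat protein that moves between the sarcomere and the nucleus in muscle. CYR61 stood at 1298.5, 829.8 and 512 normalised reads in SPANX KD 86, at 2542, 3388 and 2876 in SPANX KD 87, and at 1755, 1551 and 1632.5 in EV. No 2 groups overlapped: SPANX KD 86 was the lowest, EV lay between, and SPANX KD 87 was the highest. It averaged 880.2 ± 396 normalised reads in SPANX KD 86, 2935.5 ± 426 in SPANX KD 87 and 1646 ± 103 in EV (SD, n = 3 each). CYR61 fell 2.0-fold with construct 86 (log2 fold change -1.0, SE 0.29, limma adjusted p = 0.0216). CYR61 was not called without EV replicate 1 (0.0704), EV replicate 3 (0.0507), SPANX KD 86 replicate 2 (0.0612) or SPANX KD 86 replicate 3 (0.0675). With construct 87 the log2 fold change was 0.83 (SE 0.29, limma adjusted p = 0.0952), which passed with the replicate block (0.025), in a fit of these 2 groups alone (0.0486), and without SPANX KD 86 replicate 1 (0.0439) or replicate 3 (0.0477).

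ANKRD1, with 2 TEAD cores in its promoter window, stood at 145, 69.4 and 111 normalised reads in SPANX KD 86, at 343, 386 and 765 in SPANX KD 87, and at 212, 159 and 342 in EV. The order was that of CYR61, with no overlap between any 2 groups, though EV replicate 3 and SPANX KD 87 replicate 1 were nearly equal. It fell 2.16-fold with construct 86 (log2 fold change -1.11, SE 0.39, limma adjusted p = 0.0465). That call did not hold without EV replicate 1 (0.0974), EV replicate 3 (0.16), SPANX KD 86 replicate 2 (0.173), SPANX KD 86 replicate 3 (0.0791), SPANX KD 87 replicate 1 (0.0524) or SPANX KD 87 replicate 2 (0.0583). It was also lost with no filter on genes (0.0538) and with no variance trend (0.0573). With every library and the replicate block, the adjusted p with construct 86 was 0.00364. With construct 87 the log2 fold change was 1.04 (SE 0.39, limma adjusted p = 0.115), and the adjusted p was 0.0119 with the replicate block.

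CTGF, whose window holds the most TEAD cores of the genes searched, stood at 1615, 1471 and 859 normalised reads in SPANX KD 86, at 1322, 1645 and 1421 in SPANX KD 87, and at 1132, 1144 and 828 in EV. SPANX KD 86 overlapped with EV, and SPANX KD 87 lay above it. CTGF did not pass with construct 86 (log2 fold change 0.31, 95% interval -0.25 to 0.87, limma adjusted p = 0.361) or with construct 87 (0.51, -0.05 to 1.07, 0.223). With the replicate block the adjusted p with construct 87 was 0.0496.

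**Figure D2:**
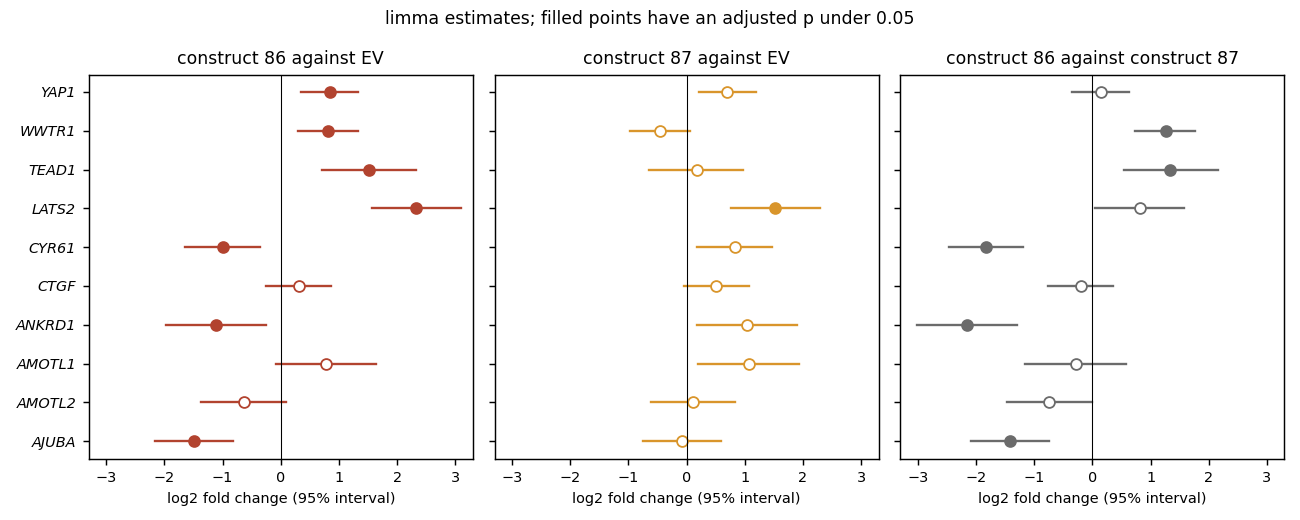
Log2 fold change of each of the 10 genes with construct 86 against EV, construct 87 against EV and construct 86 against construct 87, with 95% intervals; filled points have an adjusted p under 0.05. With construct 86 YAP1, WWTR1, TEAD1 and LATS2 lie above 0 and CYR61, ANKRD1 and AJUBA below it, and with construct 87 LATS2 is the only filled point. The fit shown has no replicate block.

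The constructs were also compared with each other, construct 86 over construct 87, to test directly where they differ. WWTR1 and TEAD1 were higher and CYR61, ANKRD1 and AJUBA lower with construct 86. The log2 difference was 1.26 for WWTR1 (2.39-fold, SE 0.23, limma adjusted p = 0.0033) and 1.34 for TEAD1 (2.54-fold, SE 0.37, 0.0213). It was -1.83 for CYR61 (3.55-fold lower, SE 0.29, limma adjusted p = 0.00153), -2.15 for ANKRD1 (4.45-fold lower, SE 0.39, 0.00298) and -1.41 for AJUBA (2.66-fold lower, SE 0.31, 0.00725). In these 5 genes the libraries of the constructs did not overlap (2 higher, 3 lower, against 22.4% and 22.9% of all genes). Only the TEAD1 call was lost when 1 library was left out, without SPANX KD 86 replicate 1 (0.0708), SPANX KD 86 replicate 2 (0.0791) or SPANX KD 87 replicate 3 (0.072).

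YAP1 and CTGF did not pass between the constructs: the log2 difference was 0.14 for YAP1 (95% interval -0.36 to 0.63, limma adjusted p = 0.701) and -0.20 for CTGF (-0.76 to 0.36, 0.61). The CTGF difference was 0.08 without SPANX KD 86 replicate 3. LATS2 gave 0.81 (95% interval 0.04 to 1.57, limma adjusted p = 0.112) and AMOTL2 -0.74 (-1.47 to -0.01, 0.126), and with the replicate block these had adjusted p = 0.0101 and 0.0147. With the length trend removed AMOTL2 gave -0.90 (adjusted p = 0.0291). AMOTL1 gave -0.29 (95% interval -1.16 to 0.57, limma adjusted p = 0.633), and -0.51 with adjusted p = 0.0346 where block and length correction were combined.

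**Figure D3:**
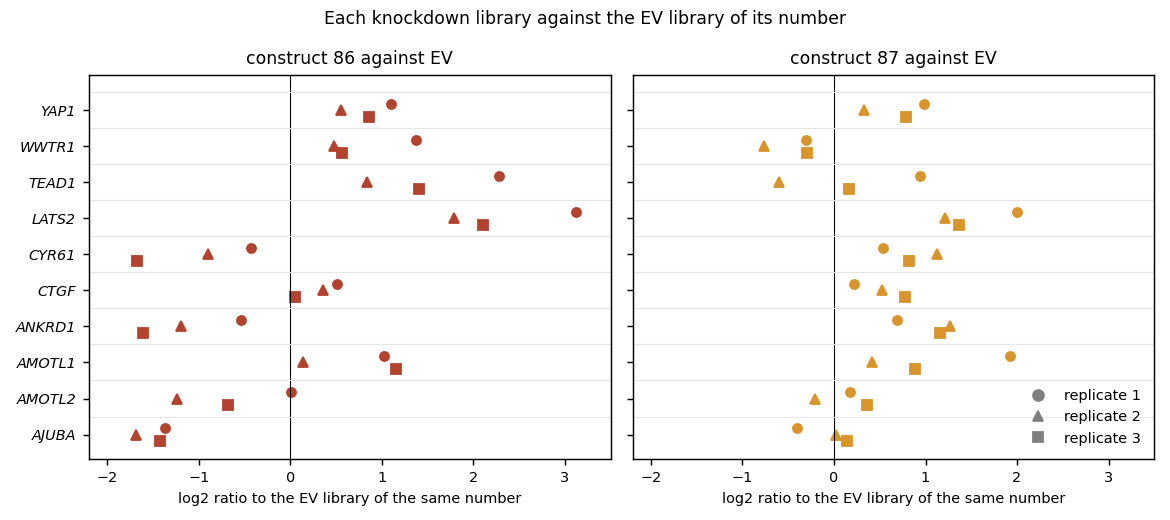
Log2 ratio of each of the 10 genes in a knockdown library to the EV library of the same replicate number, with construct 86 on the left and construct 87 on the right; each point is 1 pair, with its replicate number given by the marker. LATS2 is above 0 in all 3 pairs of both comparisons with EV, and AJUBA with construct 86 is below 0 in all 3.

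Within pairs of libraries of the same replicate number, 6 of the 10 genes were higher with construct 86 than in EV in every pair, 3 were lower in every pair and 1 was mixed. Of all genes, 34.5% were higher and 37.3% lower in every pair. With construct 87, 6 were higher in every pair, 1 was lower and 3 were mixed, against 31% and 29.8% of all genes. For LATS2 the log2 fold changes in pairs 1, 2 and 3 were 3.12, 1.79 and 2.10 with construct 86, and 2.0, 1.21 and 1.37 with construct 87. For CYR61 they were -0.43, -0.90 and -1.67 with construct 86, and 0.53, 1.13 and 0.82 with construct 87. Every pair thus had CYR61 below EV with construct 86 and above EV with construct 87. For YAP1 they were 1.10, 0.55 and 0.86 with construct 86, and 0.98, 0.33 and 0.79 with construct 87. The change was smallest in pair 2 for YAP1 and LATS2, which contains EV replicate 2.

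The rest of the pathway was described with 6 lists of 71 genes, of which 66 were tested. These lists hold no member of the 10 and were chosen with earlier results of these data known. Their counts therefore describe the lists and do not test them. Their counts are to be read against the shares of all genes called higher and lower: 18% and 17.6% with construct 86 (27% and 28.4% with the replicate block), 5.87% and 4.43% with construct 87 (16.1% and 14.9% with the block), and 12.8% and 12.7% between the constructs (21.9% and 22.3% with the block). Without EV replicate 2, calls over all genes were 3009 higher and 3010 lower with construct 86, against 2490 and 2438 with every library, and 1366 and 1183 with construct 87, against 812 and 613. The first list, the core kinases and adaptors, had 15 tested genes, with a median log2 fold change of 0.37 with construct 86. Of these genes, 6 rose and 2 fell with construct 86 (8 and 2 with the replicate block, 7 and 2 without EV replicate 2). With construct 87, 1 rose and 1 fell (5 and 2 with the replicate block), with a median of 0.25. Without EV replicate 2, where calls with construct 87 rose over all genes as well, 5 rose and 0 fell. The FERM domain protein FRMD6, which activates the core kinases, averaged 5713, 2022.5 and 949 normalised reads in SPANX KD 86, SPANX KD 87 and EV. It rose 5.94-fold with construct 86 (limma adjusted p = 9.24e-05) and 2.15-fold with construct 87 (0.0197), and was 2.76-fold higher with construct 86 than with construct 87 (0.00195). The call with construct 87 was lost without EV replicate 1 (0.0655), EV replicate 3 (0.0558), SPANX KD 87 replicate 1 (0.0979) or SPANX KD 87 replicate 2 (0.0696).

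With construct 86 the KIBRA relative WWC2 rose 2.59-fold (limma adjusted p = 0.00484) and the LATS co-activator MOB1B rose 1.83-fold (0.0107), while STK4, which codes for the kinase MST1, fell 1.85-fold (0.00725). With construct 87 MOB1A, a close relative of MOB1B, fell 1.5-fold (limma adjusted p = 0.0488), a call lost without any 1 of the 9 libraries (0.0518 to 0.165). With every library its adjusted p was 0.0103 with the replicate block and 0.0312 with the length trend removed. The log2 fold change of MOB1A with construct 86 was 0.37 (limma adjusted p = 0.106, 0.0422 with the block), and 0.04 with the length trend removed. Between the constructs MOB1A was 1.93-fold higher with construct 86 (limma adjusted p = 0.00241) and STK4 1.8-fold lower (0.0119). The STK4 difference was lost without SPANX KD 87 replicate 1 (0.0514). In all, 2 of the 15 genes were higher and 1 lower with construct 86 than with construct 87 (5 and 1 with the replicate block).

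STRIPAK, the phosphatase complex that holds the MST kinases inactive, had 14 tested genes, of which 0 rose and 1 fell with construct 86 (4 and 5 with the replicate block, 2 and 2 without EV replicate 2). That gene was MST4, a kinase of the complex, which fell 1.72-fold (limma adjusted p = 0.00913). The limma test called 0 of the 14 with construct 87, while 2 had an unadjusted p under 0.05, 2 fell with the replicate block and 1 fell without EV replicate 2. Between the constructs 2 were higher and 2 lower with construct 86 (5 and 2 with the block). SLMAP was 1.8-fold higher (limma adjusted p = 0.0305), STK25 1.42-fold higher (0.0418) and MST4 1.65-fold lower (0.0168). Each of these 3 differences was lost without at least 3 of the libraries in turn, with adjusted p up to 0.109 for SLMAP, 0.15 for STK25 and 0.0748 for MST4.

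Of the TEAD and VGLL genes, 5 of 7 were tested, with VGLL1 and VGLL2 listed at 0. Of the 5 tested, 2 rose and 1 fell with construct 86 (2 and 2 with the replicate block). With construct 87, 0 rose and 1 fell (0 and 2 with the block). Between the constructs 2 were higher and 0 lower with construct 86 (3 and 2 with the block). VGLL3, a TEAD cofactor, stood at 279.8, 185 and 148 normalised reads in SPANX KD 86, at 46.2, 49.7 and 54.0 in SPANX KD 87, and at 42.2, 37.5 and 33.4 in EV. It rose 5.14-fold with construct 86 (limma adjusted p = 0.000249). VGLL4, which competes with YAP for TEAD, rose 1.45-fold (limma adjusted p = 0.0433), lost without any 1 library except EV replicate 2 (up to 0.126), and TEAD2 fell 3.24-fold (0.00994). With construct 87 TEAD4 fell 2.22-fold (limma adjusted p = 0.0118), a call lost without EV replicate 1 (0.0518) or SPANX KD 87 replicate 1 (0.0607). VGLL3 was 3.9-fold and VGLL4 1.99-fold higher with construct 86 than with construct 87 (limma adjusted p = 0.000864 and 0.00337). The TEAD genes thus did not move as 1 group with construct 86, since TEAD1 rose and TEAD2 fell.

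Of the junction and LIM domain partners, 13 of 14 were tested, with DCHS1 listed at 0, and 1 rose and 2 fell with construct 86 (5 and 2 with the replicate block or without EV replicate 2). AMOT, the founding angiomotin, rose 2.52-fold (limma adjusted p = 0.0195), the polarity scaffold DLG1 fell 1.71-fold (0.0214), and YWHAQ, a 14-3-3 protein, fell 1.54-fold (0.0371). The AMOT call was lost without EV replicate 1 (0.0825), EV replicate 3 (0.0663), SPANX KD 86 replicate 1 (0.0649) or SPANX KD 86 replicate 2 (0.0728). The DLG1 call was lost without SPANX KD 86 replicate 1 (0.0662) or SPANX KD 86 replicate 2 (0.0656), and that of YWHAQ without any of 7 libraries in turn (up to 0.159). With construct 87, 0 rose (2 with the replicate block or without EV replicate 2) and LIMD1, a LIM protein that like AJUBA limits LATS, fell 1.61-fold (limma adjusted p = 0.0321), lost without any of 7 libraries in turn (up to 0.131). Between the constructs LIMD1 was 1.78-fold higher with construct 86 (limma adjusted p = 0.00598), AMOT 2.92-fold higher (0.0129) and DLG1 1.62-fold lower (0.0419). The AMOT difference was lost without SPANX KD 86 replicate 1 (0.0515) or SPANX KD 86 replicate 2 (0.0528), and that of DLG1 without any of 7 libraries in turn (up to 0.123).

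Of 17 further YAP and TAZ targets, 3 rose and 3 fell with construct 86 (5 and 5 with the replicate block, 4 and 2 without EV replicate 2), with a median log2 fold change of 0.13. With construct 87, 3 rose and 1 fell (5 and 3 with the block, 5 and 1 without EV replicate 2), with a median of 0.29. NT5E, the surface enzyme CD73 that makes adenosine, averaged 9487.5, 4662 and 1177 normalised reads in SPANX KD 86, SPANX KD 87 and EV. It rose 8.53-fold with construct 86 (limma adjusted p = 7.62e-05) and 4.21-fold with construct 87 (0.00291). NUAK2, a kinase of the AMPK family, rose 2.06-fold with construct 86 (limma adjusted p = 0.0124) and 2.72-fold with construct 87 (0.00928), and the call with construct 86 was lost without SPANX KD 86 replicate 2 (0.0581). With construct 86 FJX1 fell 2.22-fold (limma adjusted p = 0.00226) and the receptor tyrosine kinase AXL fell 2.09-fold (0.00709).

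IGFBP3, which binds insulin-like growth factors, averaged 462, 7321 and 362 normalised reads in SPANX KD 86, SPANX KD 87 and EV. It rose 20.6-fold with construct 87 (limma adjusted p = 0.000217), and with construct 86 its log2 fold change was 0.42 (limma adjusted p = 0.33). Tissue factor, F3, fell 2.22-fold with construct 87 (limma adjusted p = 0.0244), a call lost without EV replicate 1 (0.0964), SPANX KD 87 replicate 1 (0.11) or SPANX KD 87 replicate 2 (0.0596). Between the constructs 3 of these targets were higher and 4 lower with construct 86 (5 and 5 with the replicate block, 3 and 5 without EV replicate 2). The 3 higher ones, F3, FOXF2 and NT5E, named after their values were seen, each lost the call without at least 3 of the libraries in turn. Of the lower ones, IGFBP3 was 15.4-fold lower (limma adjusted p = 0.000101), TGFB2 3.02-fold lower (0.00468), AXL 2.77-fold lower (0.00181) and FJX1 2.71-fold lower (0.000962). Of the CCN relatives, 2 of 4 were tested, with WISP1 and WISP2 listed at 0, and limma called neither in any comparison. At an unadjusted p under 0.05, 1 of them passed with construct 86, 0 with construct 87 and 0 between the constructs, and with the replicate block 1 fell with construct 86.

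**Figure D4:**
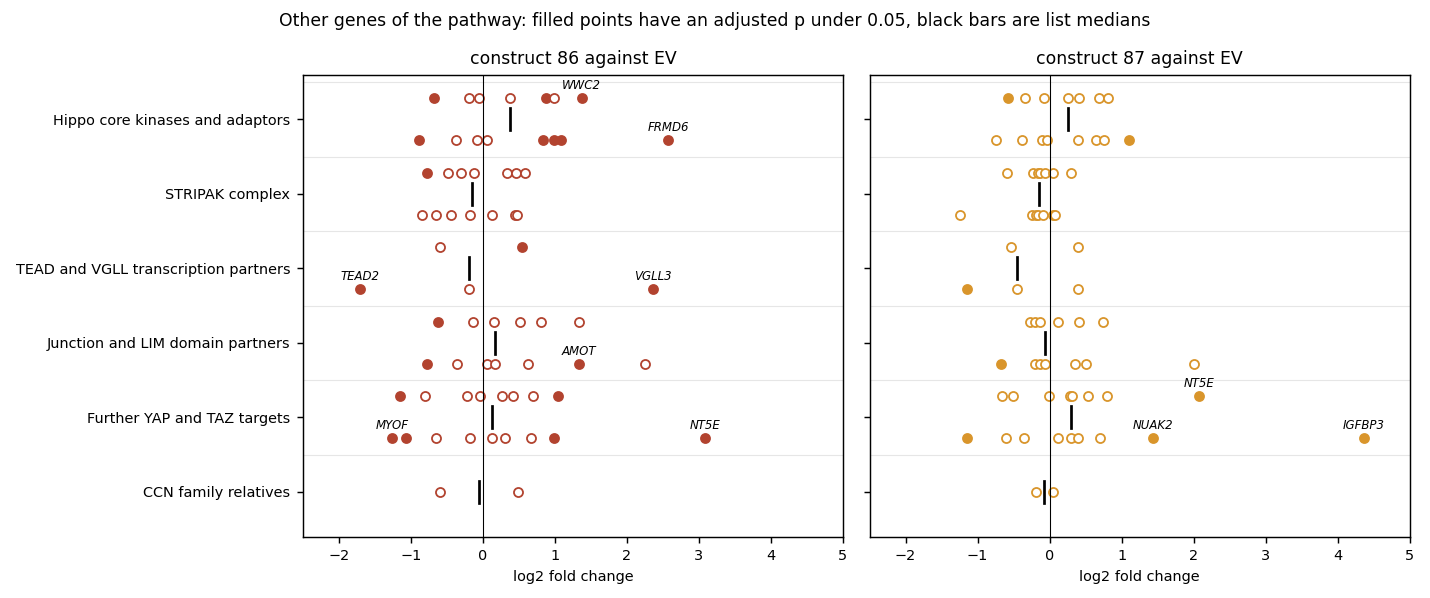
Log2 fold change of each tested gene of the 6 pathway lists with construct 86 and construct 87 against EV; points are genes, filled where the adjusted p is under 0.05, black bars are list medians and names mark called genes with large changes. With construct 86 the core kinases and adaptors have 6 genes called higher and 2 lower, while the further targets have 3 called in each direction.

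Genes with the profile most like that of YAP1 and CTGF were looked up among 11020 genes with a mean of at least 50 normalised reads. For YAP1, high values of Pearson r of log2 level over the 9 libraries were 0.983 with PIGS and 0.981 with FAM222B. For CTGF the highest were 0.927 with TNFSF9, 0.925 with ATP1B1 and 0.886 with SH3RF2. The 9 libraries fall into 3 groups and share the length trend described above, so these are descriptions of likeness.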

How the data were processed

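The values the authors deposited are normalised read counts, a score made by scaling the reads of a library and rounding the products. Per the submitters' processing notes the tools were STAR, featureCounts, Subread and edgeR, with hg19 as the genome build and no versions given. Of 60420 gene IDs, 45742 stand at 0 in all 9 libraries. A further 400 have values in EV and SPANX KD 86 alone, and 453 in SPANX KD 87 alone, so a 0 throughout a group means filtered, not unexpressed. The reads behind each value were recovered from the spacing of the values (1 read is worth 0.8515 to 1.1542 in a library) and the libraries were rescaled together by the TMM formula, trimming 30% of log ratios and 5% of abundances. The planned count test was dropped because the deposited values, scaled and rounded, are not counts, and it was not run on the recovered reads. Instead limma 3.58.1 in R 4.3.3 was fitted to log2-transformed values after adding 1, allowing a variance trend, with 3 group means and 6 residual degrees of freedom, two-sided, with Benjamini-Hochberg adjustment over 13825 genes and a threshold of 0.05. Fold changes on this scale are understated for genes with few reads.

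Whether replicate numbers pair the libraries was checked on 13819 genes: deviations from group means correlated with r between 0.215 and 0.722 across genes in all 9 pairs of the same number, and between -0.644 and 0.14 in the other 18. The numbers therefore pair the libraries by the data, though the labels do not say what a number marks. For the length correction a spline (4 degrees of freedom) on log median transcript length, from GENCODE v29 basic, was subtracted in every library. Promoter windows are RefSeq's on GRCh38.p14, a build used here for sequence only. The members and gene lists were chosen with earlier results of these data known. Every member is named, and of each list up to 4 genes per comparison, those called with the smallest adjusted p. For YAP1 and CTGF the 3 genes of highest correlation are named, and SPANXC and SPANXD serve as the check of the knockdown. Some genes that this rule names are not reported here.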

Additional observations from a re-analysis of the deposited data

Results flagged for a closer look

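Between the constructs, 5 of the 10 genes differed by the direct test of construct 86 over construct 87 in limma, with 25.6% of all genes called in that comparison. The log2 differences were 1.26 for WWTR1, 1.34 for TEAD1, -1.83 for CYR61, -2.15 for ANKRD1 and -1.41 for AJUBA. For CYR61 and ANKRD1 the libraries of SPANX KD 86 all lay below EV and those of SPANX KD 87 all above it. Of the SPANX genes, SPANXD was called between the constructs too, and SPANXC was not called without block or length correction. SPANXC was 2.1-fold higher with construct 86, with no overlap and in 3 of 3 pairs (limma adjusted p = 0.149, 0.0222 with the replicate block, 0.00964 with the length trend removed and 0.00156 with both). SPANXD averaged 0.615 normalised reads in SPANX KD 86 and 6.12 in SPANX KD 87 (limma adjusted p = 0.0172). The part of these differences in those of the 5 genes was not tested.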

How the results depend on the processing

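Of 630 values of the 10 genes under 21 other settings, 570 kept direction and call, 24 lost the call, 28 gained it and 8 changed sign. Other scalings, pseudocounts of 5 and 0.5 and a minimum mean of 10 changed no call of the 10 genes. With the replicate block, which pairs the libraries, the genes called among the 10 were 9, 6 and 7 with construct 86, with construct 87 and between the constructs, against 7, 1 and 5 without it. Calls over all genes were 7654, 4282 and 6098 with the block and 7635, 4809 and 6611 with block and length correction, against 4928, 1425 and 3533. Block and length correction together called 6 of the 10 with construct 87 and 8 between the constructs. With construct 87, the length correction alone called 3 of the 10 and a fit of these 2 groups called 2, while over all genes that fit called 854 and no filter gave 2629. Leaving out each library in turn gave 3 to 8, 0 to 3 and 4 to 5 of the 10, and 3056 to 6019, 368 to 2549 and 2197 to 4193 of all genes. The construct 87 range of all genes ran from SPANX KD 87 replicate 1 to EV replicate 2 as the library left out. Signs turned with construct 87 for TEAD1 (-0.14 without EV replicate 1, range to 0.63), AJUBA (0.14 without EV replicate 1, 0.07 without SPANX KD 87 replicate 3, range from -0.34) and AMOTL2 (-0.03 with length correction, also with the block, -0.15 without EV replicate 3, -0.04 without SPANX KD 87 replicate 2, range to 0.41), and between the constructs for CTGF (0.08 without SPANX KD 86 replicate 3, range from -0.37). None of these was called, and the cause was not tested. edgeR and DESeq2 were not run on the deposited values, which are not counts, or on the reads recovered from them. Depth, 11310792 to 15563765 reads, limits genes with few reads most, ANKRD1 among the 10. Among the 66 further pathway genes tested, 10 of 21 calls with construct 86, 3 of 8 with construct 87 and 9 of 19 between the constructs held without any 1 library.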
